A study of Homo sapiens with 8 samples.

Results

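Ribosome footprints of 293T cells were compared between 2 ways of acting on small-RNA silencing: a short hairpin RNA that does not cleave its target, and inhibitors of miRNAs. For each gene the effect of the hairpin (shNBD1 minus its control Scr, on the log2 scale) was set against the effect of the inhibitors (miRNA inhibitors minus their control NC). All 8 libraries of the series entered this comparison, 2 in each of the 4 groups. Every group consists of 293T cells, an established line from human embryonic kidney in which SV40 large T antigen is expressed. Scr is labelled as the control for shRNA, shNBD1 as a non-cleaving hairpin, NC as the inhibitor control and the last group as miRNA inhibitors. The labels give no time, dose or delivery route, do not say which miRNAs were inhibited, and do not spell out NBD1. Whether the 2 libraries of a group are separate cultures is not stated either, and the p-values then cover only the spread between libraries, possibly a technical one.

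Short hairpins and miRNAs both act through Argonaute proteins, which hold a small RNA and use its bases to find messages. A guide that pairs throughout can lead AGO2 to cut the message, whereas a guide with mismatches leads Argonaute to recruit TNRC6 proteins, which slow translation and call in deadenylation and decapping enzymes. An inhibitor is an antisense strand that occupies a miRNA and so relieves its targets. In the absence of matched RNA libraries from this comparison, a footprint count can reflect the amount of a message, its translation or both.

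After the 18037 deposited features were added up by gene, 17179 symbols were left, and 13306 passed the filter on low counts. Total counts per library were between 11218980 and 19854218. Levels are given as CPM, that is, counts scaled to a common library size. The arms separated on the first principal component (56.1% of the variance), and the third (9.63%) set NC replicate 1 (score 20.4) and inhibitors replicate 2 (score -23.5) farthest apart. The SD between replicates over genes was 0.187 on the log2 scale in Scr and in shNBD1, 0.215 in NC and 0.246 with the inhibitors. Between the controls, 3611 genes (27.1%) differed in edgeR's quasi-likelihood test with Benjamini-Hochberg adjustment at 0.05, so each difference of effects also sets 2 unlike controls against each other. Of 12 markers of 293T cells, 11 were tested, and VIM stood between 3062.6 and 6172.1 CPM in the 8 libraries. NEFL, a neurofilament gene on that list, is not listed in any library. PTPRC, CD3E and ALB, which mark blood and liver cells, were at or below 0.105 CPM of the library total in each library. The summed level of the 21 markers of other cell types was between 547.5 and 705.6 CPM of the library total, most of it ACTA2 and EPCAM. Of these 21, CD68 stood at 38.6 and 39 CPM of the library total in Scr, and 26.8 and 26.4 with shNBD1. It stood at 12 and 14.9 in NC, and 10.8 and 11.9 with the inhibitors. COL1A1 was between 24.9 and 57.5, and HBA1 between 1.02 and 3.4.

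The difference of effects passed the test in 990 of 13306 genes (7.44%), higher in 463 (3.48%) and lower in 527 (3.96%). Higher means that the hairpin effect lay above the inhibitor effect. Before adjustment 3254 genes (24.5%) had p under 0.05, 1615 of them higher and 1639 lower. The number called rested on both libraries of each hairpin-arm group: it was 187 without Scr replicate 1, 214 without Scr replicate 2, 335 without shNBD1 replicate 1 and 199 without shNBD1 replicate 2, and between 1041 and 1135 without any 1 library of the other arm. Without both NC replicate 1 and inhibitors replicate 2, the libraries that stood apart, 3738 of 13467 genes were called, 1913 higher and 1825 lower, so the counts of a list in that setting are to be read against this larger background. That setting sets inhibitors replicate 1 against NC replicate 2, 1 library each, and takes the spread from the hairpin arm alone. Shifts from replicate 1 to 2 correlated at 0.42 between NC and the inhibitors, so they can enter this comparison of unlike replicate numbers. Counts, classes and adjusted p-values in that setting are therefore a description. By itself the hairpin changed 2440 genes (18.3%, 1222 higher and 1218 lower). The inhibitors changed 16 genes (0.12%), 5 higher (0.0376%) and 11 lower (0.0827%), with 2183 (16.4%) at an unadjusted p under 0.05.

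The 990 genes were sorted by the sizes of their effects. In 515 (3.87% of all tested genes) the effects had opposite signs and the smaller was at least 0.25 of the larger, which is called opposed here. In 446 (3.35%) the inhibitor effect was under 0.25 of the hairpin effect (hairpin-sided), and in 14 the hairpin effect was under 0.25 of the inhibitor effect (inhibitor-sided). In 15 both effects had the same sign but unequal size. A further 508 genes (3.82%) were called shared: the mean of both effects passed the test (1580 genes, 11.9%, with 6.07% higher and 5.8% lower), the signs agreed, the smaller effect was at least 0.5 of the larger, all treated libraries lay beyond both of their controls, and the difference had an unadjusted p of 0.05 or more. Sorting by size is not a test of a zero effect. Choosing genes by a large difference also favours opposite signs, so the number of opposed genes is a description. Read gene by gene, 3 genes passed the test in both arms with opposite signs and 4 with the same sign.

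**Figure D1:**
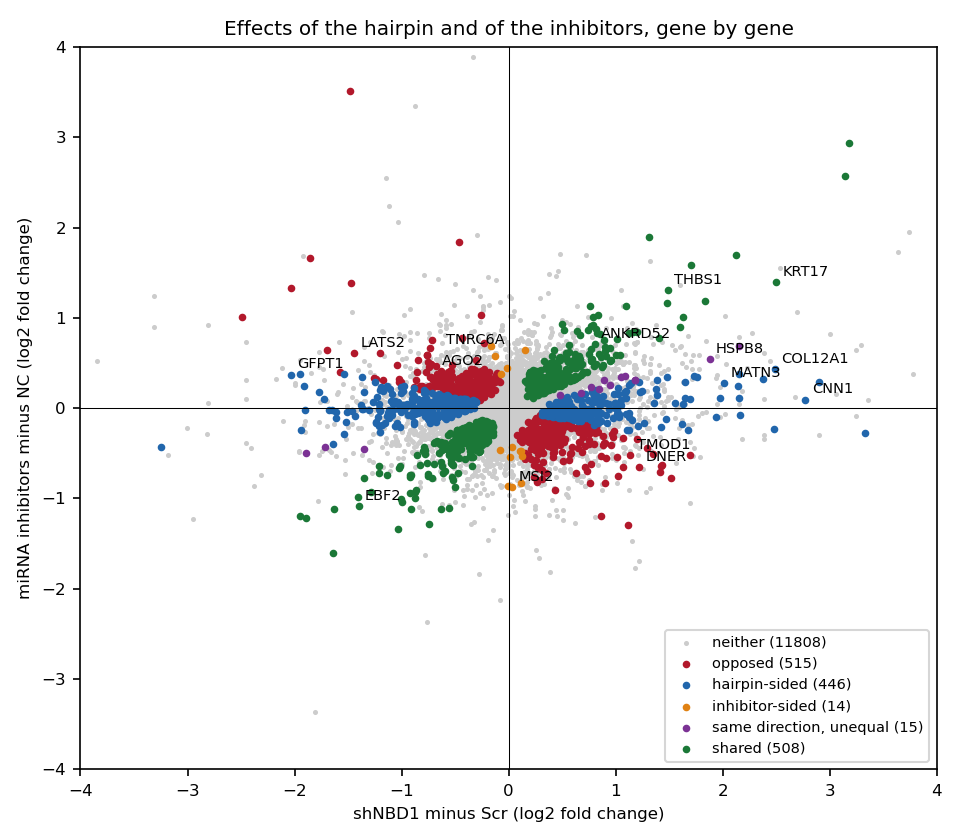
Effect of the hairpin (x axis, log2 fold change of shNBD1 over Scr) against that of the inhibitors (y axis, log2 fold change of miRNA inhibitors over NC) for each tested gene, coloured by class, with 6 genes beyond the axis limits of 4. The hairpin-sided genes lie along the horizontal axis out to large changes, the 14 inhibitor-sided genes lie close to the vertical axis, and the opposed genes fill the upper left and lower right.

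The arms share no library, so genes chosen on the hairpin arm could be read in the other arm. Of the 1222 genes that rose with the hairpin, 61.5% had an inhibitor effect above 0 (median log2 change 0.06), against 51.5% of all tested genes. Of the 182 that rose at least 2-fold, 71.4% did (median 0.20). Of the 1218 that fell, 47.7% had an inhibitor effect above 0 (median -0.01), and of the 148 that fell at least 2-fold 38.5% did (median -0.04). Across the 13306 genes the effects had a Pearson r of 0.152 and a Spearman rho of 0.133; genes are not independent replicates.

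Among opposed genes that were higher with the hairpin, the smallest p belonged to TMOD1, which caps the slow-growing end of actin filaments (chr9:97501180-97601743, GRCh38.p14). TMOD1 stood at 37.1 and 37.4 CPM in Scr, 83.6 and 80.4 with shNBD1, 49.7 and 44.5 in NC, and 35.6 and 29.6 with the inhibitors. Both hairpin libraries lay above all others and both inhibitor libraries below both NC libraries. The hairpin effect was 1.14 ± 0.10 (SE, log2), the inhibitor effect -0.52 ± 0.10, and the difference 1.66 ± 0.14 (adjusted p = 2.56e-04, edgeR's quasi-likelihood test).

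DNER, a transmembrane ligand of the Notch pathway, showed the widest opposed difference among the named genes with a higher hairpin effect. DNER stood at 3.65 and 4.09 CPM in Scr, 9.46 and 8.57 with shNBD1, 8.08 and 9.03 in NC, and 4.94 and 6.05 with the inhibitors. The hairpin libraries thus overlapped with NC and the inhibitor libraries lay between Scr and NC. Its difference of effects was 1.88 ± 0.23 (adjusted p = 0.00191), and Scr was below NC by 1.15 on the log2 scale (log2 difference -1.15, adjusted p = 0.00106). NOTCH3, a Notch receptor, was one of the 5 genes opposed in this direction whose inhibitor effect also passed the test. NOTCH3 stood at 49.9 and 55.4 CPM in Scr, 63.1 and 63.2 with shNBD1, 60.4 and 59 in NC, and 37.8 and 30.6 with the inhibitors. It fell with the inhibitors by 0.79 ± 0.10 on the log2 scale (adjusted p = 0.028), the hairpin effect was 0.26 ± 0.10 (adjusted p = 0.0896), and the difference was 1.06 ± 0.14 (adjusted p = 0.00248).

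CSNK1E, a casein kinase of the circadian clock and of Wnt signalling, and MAPK8IP2, a scaffold of the JNK kinases, passed the test in both arms with opposite signs. CSNK1E stood at 233.7 and 224.8 CPM in Scr, 273.3 and 281.8 with shNBD1, 192.7 and 196.8 in NC, and 146.0 and 143.2 with the inhibitors. It rose by 0.28 ± 0.06 with the hairpin (adjusted p = 0.0135) and fell by 0.43 ± 0.06 with the inhibitors (adjusted p = 0.0396). MAPK8IP2 rose by 0.42 ± 0.08 and fell by 0.54 ± 0.08 in the same order (adjusted p = 0.00595 and 0.0396). No treated library of either gene overlapped with its own controls. The other opposed genes named in this direction were PLAT, the tissue plasminogen activator (difference 1.03 ± 0.10), MRC2, an endocytic collagen receptor (1.08 ± 0.13), TMCO3, a putative ion exchanger (0.93 ± 0.11), and B3GALNT2, which builds the matrix-binding glycan of dystroglycan (0.91 ± 0.11). Adjusted p-values of these 4 were between 4.95e-04 and 0.0019.

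Among opposed genes that were lower with the hairpin, CACNA2D1, an auxiliary subunit of voltage-gated calcium channels, led by p (chr7:81946444-82443956). CACNA2D1 stood at 45.4 and 48.4 CPM in Scr, 23.4 and 22.5 with shNBD1, 36.8 and 39 in NC, and 47.1 and 47.3 with the inhibitors. The hairpin libraries were the lowest of all 8, and both inhibitor libraries were above both NC libraries and inside the range of Scr. The effects were -1.03 ± 0.09 and 0.32 ± 0.08 and the difference -1.35 ± 0.12 (adjusted p = 3.26e-04). CCND2, a D-type cyclin that drives entry into S phase, stood at 76.6 and 75.5 CPM in Scr, 41.7 and 41.9 with shNBD1, 84.6 and 98.1 in NC, and 108.9 and 117.6 with the inhibitors. Its difference was -1.17 ± 0.12 (adjusted p = 6.38e-04).

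The third gene that passed in both arms with opposite signs was YOD1, a deubiquitinase of the endoplasmic reticulum degradation pathway. YOD1 stood at 12.7 and 12.9 CPM in Scr, 7.4 and 8.17 with shNBD1, 9.2 and 10.2 in NC, and 15.8 and 16.8 with the inhibitors. It fell by 0.72 ± 0.13 with the hairpin (adjusted p = 0.00417) and rose by 0.75 ± 0.12 with the inhibitors (adjusted p = 0.0483), a difference of -1.47 ± 0.17. The remaining named genes of this direction act in unrelated places. TDG, a DNA glycosylase of base repair and demethylation, had a difference of -0.94 ± 0.09, and ACSL4, which activates arachidonate for membrane lipids, one of -0.96 ± 0.10. UBR1, a ligase of the N-degron pathway, had -1.04 ± 0.11, and KLHL15, an adaptor of a cullin ligase, -0.99 ± 0.11. VDAC1, the pore of the outer mitochondrial membrane, had -0.83 ± 0.09, and FERMT2, an activator of integrins, -0.80 ± 0.09. Adjusted p-values of these 6 were between 4.95e-04 and 0.00136.

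**Figure D2:**
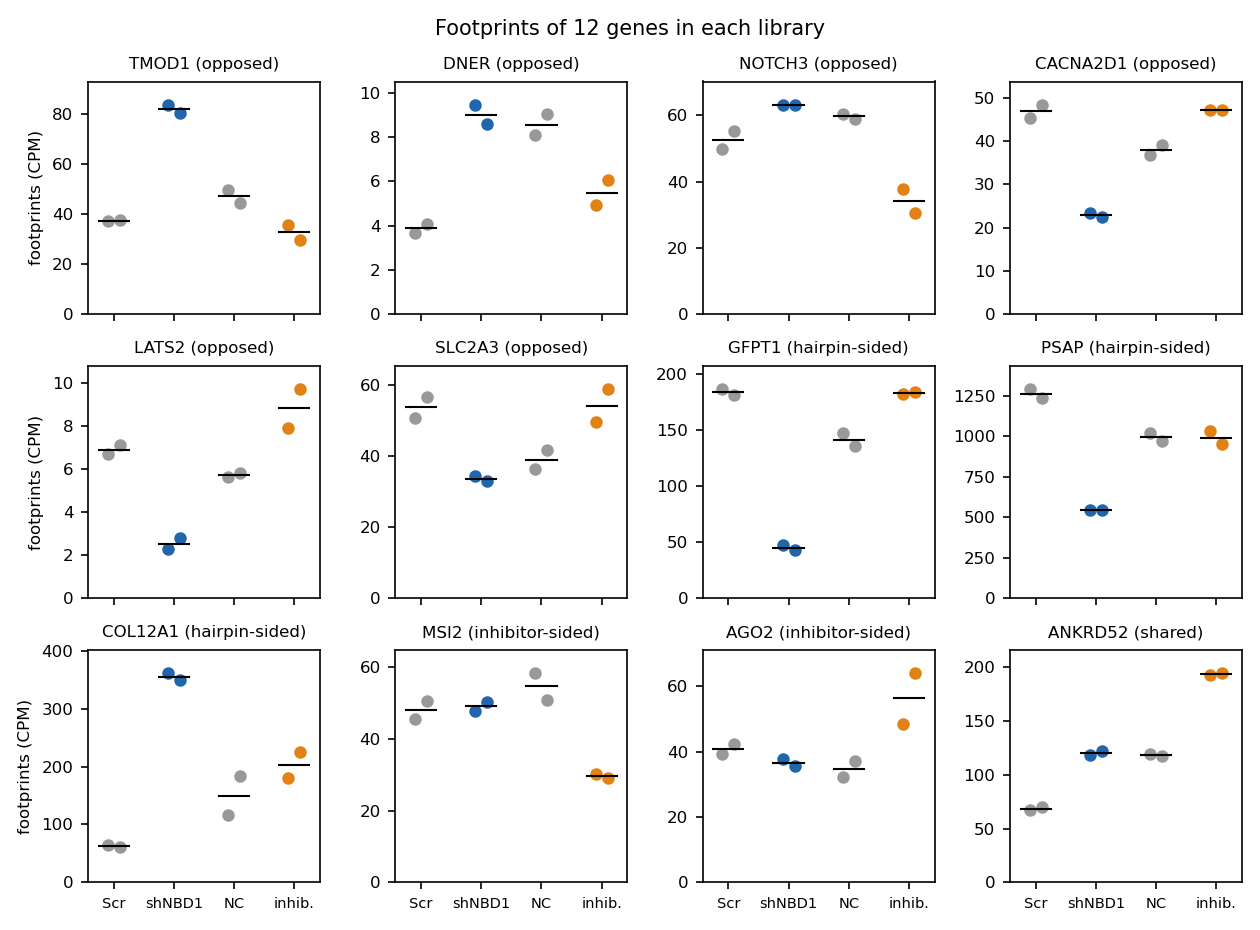
Footprints of 12 genes (y axis, CPM, starting at 0) in the 2 libraries of Scr, shNBD1, NC and the inhibitors (x axis), with points for libraries and a line for the group mean. TMOD1 and GFPT1 separate the hairpin libraries from the other 6, MSI2 and ANKRD52 separate the inhibitor libraries, and for COL12A1 the NC libraries lie far apart.

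Genes of the proteasome, which degrades ubiquitin-tagged proteins, gave calls in 1 direction with all 8 libraries. Of 30 tested proteasome genes, 7 had a lower difference (23.3%, against 3.96% of all genes) and none a higher one; at an unadjusted p under 0.05 the counts were 12 and 0, and in DESeq2 6 and 0. The lower and higher counts were 11 and 3 without both libraries that stood apart. The hairpin lowered 7 of the 30 and raised 0, and the inhibitors passed the test for 0. All 7 with a called difference were opposed: PSMA1 of the catalytic core, PSMC1 and PSMC6 of the ATPase ring, and PSMD1, PSMD6, PSMD12 and PSMD13 of the lid and base. The list medians were -0.10 for the hairpin, 0.05 for the inhibitors and -0.12 for the difference. PSMD12 stood at 291.4 and 288.3 CPM in Scr, 242.9 and 236.1 with shNBD1, 220.5 and 233.1 in NC, and 261.3 and 269.7 with the inhibitors. Its difference was -0.50 ± 0.09 (adjusted p = 0.0101), and each inhibitor library was above both NC libraries. These were small effects, and PSMD12, PSMD6, PSMC1 and PSMC6 each lost the call without 3 or 4 of the libraries taken singly.

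Translation factors had list medians of -0.02 for the hairpin (3 raised, 5 lowered), 0.11 for the inhibitors (0 called) and -0.17 for the difference. Of 35 tested, 6 had a lower difference and 1 a higher one (20%), and all 7 were opposed. EIF3J, which sits at the decoding site of the small subunit, stood at 98.5 and 95.7 CPM in Scr, 73.6 and 73.1 with shNBD1, 47.6 and 50.3 in NC, and 59.3 and 63.3 with the inhibitors. The difference was -0.73 ± 0.10 (adjusted p = 0.00303), while Scr was above NC by 0.99 (adjusted p = 2.52e-05), so the hairpin libraries stayed above both inhibitor libraries. EIF1, which guards start-codon choice, had a difference of -0.45 ± 0.09, EIF5, which triggers GTP hydrolysis at the start codon, one of -0.46 ± 0.10, and EIF5B, which joins the subunits, one of -0.46 ± 0.09. EIF3M and the elongation factor EEF1A1 were also lower (-0.45 ± 0.11 and -0.50 ± 0.12), and reads of EEF1A1 may be shared with its processed copies. The exception was the helicase EIF4A2, at 0.49 ± 0.13 (adjusted p = 0.0461). Without both NC replicate 1 and inhibitors replicate 2, the list had 11 higher and 13 lower members and a median difference of -0.03 in place of -0.17.

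TCP1 and CCT2, subunits of the TRiC chaperonin that folds actin and tubulin, were opposed as well (-0.53 ± 0.10 and -0.34 ± 0.09). VBP1, a prefoldin subunit, was hairpin-sided at -0.53 ± 0.14. The calls of TCP1, CCT2 and VBP1 were lost under 3, 9 and 11 of 19 alternatives. These were the 3 calls among 14 tested members (21.4%, against 7.44% of all genes), whose hairpin median was 0.01. With both libraries that stood apart left out, 4 were lower and 3 higher. Of 37 splicing factors, 4 had a lower and 1 a higher difference, and 11 and 6 without those libraries. SNRPA, a protein of the U1 particle that also represses its own message, stood at 115.8 and 110.4 CPM in Scr, 99.6 and 93.6 with shNBD1, 91.9 and 99.2 in NC, and 146.1 and 168.7 with the inhibitors. It was one of the 5 genes that rose with the inhibitors (0.72 ± 0.08, adjusted p = 0.0204), and its difference was -0.95 ± 0.12 (adjusted p = 0.00203). HNRNPH1, a splicing repressor of G-rich sites, and SNRPB2, of the U2 particle, followed at -0.60 ± 0.10 and -0.47 ± 0.10, and SRSF10 was hairpin-sided at -0.41 ± 0.10. U2AF1, which reads the 3′ splice site, was higher at 0.40 ± 0.11 (adjusted p = 0.0482). With all 8 libraries the called share of splicing factors was 13.5%.

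Of 25 mitotic genes, 5 were lower and 1 higher in the difference (24%), and 13 and 2 without both libraries that stood apart. CCNA2, the cyclin of S phase and G2, stood at 128.2 and 128.7 CPM in Scr, 96.9 and 98.9 with shNBD1, 80.2 and 92.9 in NC, and 98 and 103.6 with the inhibitors (difference -0.61 ± 0.11). KIF23 and CENPE, motors of the midzone and the kinetochore, were opposed (-0.43 ± 0.09 and -0.53 ± 0.13), while TOP2A and ASPM were hairpin-sided (-0.44 ± 0.10 and -0.48 ± 0.12). AURKB, the kinase of the chromosomal passenger complex, went the other way. It stood at 197.4 and 201.9 CPM in Scr and 300.1 and 309.3 with shNBD1, and at 179.1 and 210.6 in NC and 183.0 and 193.8 with the inhibitors (difference 0.66 ± 0.12, adjusted p = 0.00906). Its inhibitor libraries lay between those of NC.

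Motor proteins of microtubules gave 4 higher and 1 lower difference among 27, and 9 and 2 without both libraries that stood apart. With all 8 libraries the called share was 18.5%, against 7.44% of all genes. The dynein light chains DYNLL2, DYNLRB1 and DYNLT3 were opposed, at 0.80 ± 0.11, 0.72 ± 0.11 and 0.71 ± 0.15. KIF5C, a heavy chain of conventional kinesin, was hairpin-sided: it stood at 24 and 25.9 CPM in Scr, 55.2 and 53.3 with shNBD1, 39.9 and 43.2 in NC, and 39.1 and 38.3 with the inhibitors. Its difference was 1.22 ± 0.12 (adjusted p = 4.95e-04). KIF2A, which depolymerises microtubule ends, had the lower difference, -0.47 ± 0.10.

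The hairpin-sided gene of smallest p was GFPT1, the enzyme that commits glucose to the hexosamine pathway (chr2:69319780-69387227). GFPT1 stood at 186.5 and 181.5 CPM in Scr, 47.4 and 42.6 with shNBD1, 147.2 and 135.4 in NC, and 181.8 and 183.3 with the inhibitors. The hairpin libraries were the lowest by a wide margin, and the inhibitor libraries reached the level of Scr. The hairpin effect was -2.03 ± 0.08, the inhibitor effect 0.37 ± 0.07 (95% interval 0.21 to 0.53, adjusted p = 0.0934), and the difference -2.40 ± 0.11 (adjusted p = 4.10e-06). Of 12 tested hexosamine genes, 3 were lower and 1 higher in the difference (33.3%), with the same counts without both libraries that stood apart. UAP1L1, a relative of the enzyme that makes UDP-GlcNAc, was hairpin-sided (-1.64 ± 0.24), and OGA, which removes O-GlcNAc, was opposed (-0.52 ± 0.10). GNPDA1, which runs the pathway backwards, was opposed in the other direction (0.50 ± 0.10).

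Lysosomal genes were the other large hairpin-sided set on the lower side. Of 33 tested, 6 were lower and 2 higher in the difference (24.2%), and 18 and 7 without both libraries that stood apart, with medians of -0.15 for the hairpin and -0.01 for the inhibitors. PSAP, the precursor of the saposins that present lipids to hydrolases, stood at 1290.8 and 1231.8 CPM in Scr, 546.3 and 544.4 with shNBD1, 1019.4 and 970.1 in NC, and 1028.3 and 948.7 with the inhibitors. The inhibitor libraries overlapped with NC, with an effect of -0.01 ± 0.07 (95% interval -0.16 to 0.14), and the difference was -1.20 ± 0.10 (adjusted p = 1.98e-04). SCPEP1, a serine carboxypeptidase, had a difference of -1.35 ± 0.12, and ATP6V1E1, a subunit of the proton pump, one of -1.08 ± 0.10. ATP6V1D and LAMP1, an abundant membrane protein of the lysosome, were lower by less (-0.50 ± 0.11 and -0.43 ± 0.09), and ATP6V1C1 was opposed (-0.43 ± 0.11). The members with a higher difference were the protease CTSB (0.39 ± 0.09) and GUSB, the glucuronidase (0.37 ± 0.09).

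Some genes of message decay also had a lower difference. DCP2, the decapping enzyme, stood at 93.6 and 95.3 CPM in Scr, 48.9 and 46.7 with shNBD1, 58.4 and 56.5 in NC, and 71.8 and 63.5 with the inhibitors (difference -1.22 ± 0.11, adjusted p = 3.94e-04). CNOT11, a subunit of the CCR4-NOT deadenylase, stood at 66.7 and 66.1 CPM in Scr, 30.9 and 30.2 with shNBD1, 67 and 72.1 in NC, and 64.8 and 71.6 with the inhibitors (difference -1.09 ± 0.11, adjusted p = 6.96e-04). With the decapping activator PATL1, which was opposed at -0.55 ± 0.12, these were 3 lower and 0 higher calls among 20 tested members. That was a share of 15%, against 7.44% of all genes. At an unadjusted p under 0.05 the counts were 5 and 1, in DESeq2 2 and 0, and without both libraries that stood apart 8 and 0. The list medians were -0.16 for the hairpin and -0.01 for the inhibitors.

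The other named hairpin-sided genes that fell act apart from one another. CAPZA1, which caps the fast-growing end of actin filaments, had a difference of -1.35 ± 0.10, and TMEM70, an assembly factor of ATP synthase, one of -1.39 ± 0.10. ENPP4, an ectonucleotidase, had -1.95 ± 0.15, AMMECR1 -2.15 ± 0.17, and PNP, a purine salvage enzyme, -1.10 ± 0.09, each with an adjusted p of 1.98e-04. PNP stood at 557.7 and 555.8 CPM in Scr, 274.6 and 270.1 with shNBD1, 202.1 and 197.9 in NC, and 205.3 and 214.6 with the inhibitors, so the hairpin libraries, though far under Scr, were still above NC. The sterol genes MSMO1, a demethylase of cholesterol synthesis, and INSIG1, which retains SREBP, were hairpin-sided at -1.43 ± 0.21 and -1.40 ± 0.24. They were the 2 calls among 25 sterol genes. Relative to the NC mean the sterol list stood at 0.00 and -0.28 in inhibitors replicates 1 and 2, and without both libraries that stood apart it had 12 lower and 1 higher members and a median difference of -0.22 in place of -0.07. IARS1, which charges isoleucine tRNA, had -0.79 ± 0.09, and SLC7A11, the cystine transporter, -1.28 ± 0.23.

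Genes of the extracellular matrix and its receptors differed between the arms on the higher side. Of 40 tested, 15 had a higher difference (37.5%, against 3.48% of all genes) and 0 a lower one, 25 and 0 at an unadjusted p under 0.05, and 16 and 0 in DESeq2. The counts were 24 and 2 without both libraries that stood apart. The medians were 0.42 for the hairpin, 0.08 for the inhibitors and 0.48 for the difference, and the last lay between 0.44 and 0.52 over 19 alternatives. Of the 15, 10 were hairpin-sided, 4 were opposed and 1 was unequal in the same direction. The list was written with earlier results of these data known, and the control Scr was below NC on it (median -0.35).

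COL12A1, a collagen that decorates fibrils, stood at 65.1 and 61.6 CPM in Scr, 361.3 and 349.3 with shNBD1, 115.8 and 184.0 in NC, and 180.4 and 225.3 with the inhibitors. The hairpin libraries were above the other 6, Scr was the lowest group, and NC and the inhibitors overlapped. The hairpin effect was 2.49 ± 0.18, the inhibitor effect 0.43 ± 0.17 (95% interval 0.05 to 0.82, adjusted p = 0.253), and the difference 2.05 ± 0.25 (adjusted p = 0.00168). MATN3, a matrilin, stood at 3.59 and 3.36 CPM in Scr, 14.2 and 14 with shNBD1, 5.42 and 5.26 in NC, and 7 and 5.77 with the inhibitors (difference 1.74 ± 0.22). COL5A1, a fibril collagen, had a hairpin effect of 1.10 ± 0.10 from 32.8 and 31.8 CPM in Scr to 67.1 and 71.6, while NC (101.5 and 122.4) and the inhibitors (118.7 and 123.8) both lay above the hairpin libraries.

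COL5A2, a partner chain of COL5A1, was hairpin-sided at 0.88 ± 0.20. The laminin chains LAMA1 and LAMA5 were too (0.65 ± 0.10 and 0.70 ± 0.12), as were SPARC, which regulates collagen assembly (0.40 ± 0.09), and TNC, an anti-adhesive glycoprotein (0.87 ± 0.20). The integrins ITGA1 and ITGA3, receptors for collagen and laminin, had 0.48 ± 0.13 and 0.66 ± 0.15. The opposed members were COL4A5 of the basement membrane (0.65 ± 0.15), LAMB1 (0.45 ± 0.09), FBN1, the fibrillin of microfibrils (0.81 ± 0.15), and HSPG2, the proteoglycan perlecan (0.68 ± 0.14). FBN1 stood at 223.0 and 228.3 CPM in Scr, 283.7 and 279.1 with shNBD1, 211.5 and 179.9 in NC, and 154.2 and 122.5 with the inhibitors (adjusted p = 0.0114). Outside the list, SLIT3, a secreted guidance ligand, OLFML2A, a secreted olfactomedin protein, and the integrin ITGA9 were named by p. SLIT3 stood at 12.2 and 10.7 CPM in Scr, 30.1 and 31.6 with shNBD1, 9.51 and 8.98 in NC, and 8 and 8.04 with the inhibitors (difference 1.63 ± 0.17, adjusted p = 6.04e-04). OLFML2A and ITGA9 had differences of 1.79 ± 0.20 and 2.03 ± 0.25, and GJA1, the gap-junction protein connexin 43, had 0.96 ± 0.11.

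Of 11 tested markers of 293T cells, 3 had a higher and 1 a lower difference (36.4%), with a median difference of 0.43. The matrix list had a median difference of 0.48. Among these markers, the intermediate filament genes VIM and NES were hairpin-sided on the higher side. VIM stood at 3541.0 and 3588.1 CPM in Scr, 5900.2 and 6172.1 with shNBD1, 3062.6 and 3570.7 in NC, and 3117.1 and 3255.6 with the inhibitors (difference 0.82 ± 0.11, adjusted p = 0.00269). NES had 1.18 ± 0.19. The adhesion gene CDH2 was opposed at 0.43 ± 0.09, and SOX11, a transcription factor of neural precursors, was lower at -0.87 ± 0.15. Without both libraries that stood apart, 6 of these markers were higher and 2 lower. Of 12 tested markers of other cell types, 1 had a called difference, ACTA2 (0.51 ± 0.10). That list had medians of 0.27 for the hairpin and 0.30 for the inhibitors, and stood at 0.23 and 0.26 in the hairpin libraries and at 0.10 and 0.57 in inhibitors replicates 1 and 2, relative to the control means. Its median difference was 0.01 with all 8 libraries and 0.47 without both that stood apart, where 5 were higher and 1 lower and the matrix list also had a median difference of 0.47. The part of these cells in the matrix result was not tested.

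Actin genes and targets of the transcription factor SRF gave 6 higher and 2 lower differences among 25 tested (32%). The medians were 0.63 for the hairpin, 0.28 for the inhibitors and 0.38 for the difference. Single libraries differed within the inhibitor arm: relative to the NC mean, the median of the list was -0.07 and 0.07 in the NC libraries, and 0.05 and 0.46 in inhibitors replicates 1 and 2. Without both NC replicate 1 and inhibitors replicate 2, the inhibitor median was -0.12 and the difference 0.55, with 18 higher and 2 lower members. CNN1, a calponin of contractile filaments, stood at 0.664 and 0.9 CPM in Scr, 5.48 and 5.17 with shNBD1, 3.78 and 4.08 in NC, and 3.56 and 5.01 with the inhibitors (difference 2.68 ± 0.36, adjusted p = 0.00248). RHOB, a small GTPase of stress fibres, stood at 66.1 and 67.4 CPM in Scr, 196.5 and 222.6 with shNBD1, 103.8 and 75.1 in NC, and 104.7 and 114.0 with the inhibitors (1.36 ± 0.18, adjusted p = 0.00253). In both genes the controls differed, Scr being below NC.

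TAGLN, an actin cross-linker of smooth muscle, stood at 1.73 and 1.47 CPM in Scr, 34.9 and 31.8 with shNBD1, 7.62 and 41 in NC, and 26.3 and 49.4 with the inhibitors. The hairpin effect of 4.37 ± 0.80 was the largest of the list, but the NC libraries were so far apart that the difference, 3.75 ± 1.01, only just passed (adjusted p = 0.0481). The lower members were CAPZA1 and EGR1, an immediate early transcription factor. EGR1 stood at 4.45 and 5.07 CPM in Scr, 3.91 and 4.01 with shNBD1, 4.86 and 4.85 in NC, and 7.56 and 12.8 with the inhibitors (difference -1.29 ± 0.34, adjusted p = 0.0477). MYH9, VCL and FLNC, which form and anchor stress fibres, were in the shared class, and none of the 3 was shared without the libraries that stood apart.

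SRF binds the CArG box, a short AT-rich motif between paired C and G bases. Of the list's 23 genes with a promoter window around the start site from RefSeq (GRCh38.p14, 300 bases), 6 held a CArG box (26.1%), against 119 of 10373 tested genes with a window (1.15%). Since the list holds known SRF targets, this is a description. The 6 were CNN2, EGR1, FHL2, FLNA, SRF and TPM4, and only EGR1 and TPM4 of them had a called difference. Their windows are shown because they carry the same motif and their differences of effects had opposite signs. The hairpin effects were -0.26 in EGR1 and 0.78 in TPM4, and the inhibitor effects 1.03 and 0.18. Capitals mark each CArG box (EGR1 at chr5:138465229-138465528, TPM4 at chr19:16067288-16067587, both on the plus strand).
EGR1: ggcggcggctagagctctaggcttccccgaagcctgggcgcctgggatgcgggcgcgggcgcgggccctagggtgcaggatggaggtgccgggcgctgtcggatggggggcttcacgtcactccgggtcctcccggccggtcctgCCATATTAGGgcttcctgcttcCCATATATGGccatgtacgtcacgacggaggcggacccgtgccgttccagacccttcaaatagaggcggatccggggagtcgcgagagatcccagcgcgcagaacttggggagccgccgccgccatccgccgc
TPM4: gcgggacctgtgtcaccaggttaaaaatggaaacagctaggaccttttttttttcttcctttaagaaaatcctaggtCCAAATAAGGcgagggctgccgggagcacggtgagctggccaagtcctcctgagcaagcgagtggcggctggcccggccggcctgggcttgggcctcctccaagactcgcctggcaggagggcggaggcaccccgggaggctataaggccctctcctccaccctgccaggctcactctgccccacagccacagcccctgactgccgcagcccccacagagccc
TPM4, a tropomyosin, stood at 269.9 and 270.8 CPM in Scr, 464.6 and 466.4 with shNBD1, 248.5 and 270.7 in NC, and 268.3 and 320.1 with the inhibitors. It was hairpin-sided with a difference of 0.61 ± 0.12 (adjusted p = 0.0161). FLNA, FHL2, CNN2 and SRF had differences of 0.48, 0.39, -0.36 and 0.31, with adjusted p-values between 0.201 and 0.684. Among all 155 hairpin-sided genes with a higher difference and a window, 4 held a CArG box (2.58%), and among 207 with a lower one, 1 did (0.483%). The shares of the AP-1 motif TGANTCA were 8.39% and 3.86% in the same order, against 4.45% of all windows. Motifs were searched on both strands.

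Targets of YAP and TAZ, coactivators of the Hippo pathway, had medians of 0.61 for the hairpin and 0.53 for the inhibitors, with 12 raised and 1 lowered by the hairpin and 0 called with the inhibitors. Of 24 tested, 1 had a higher and 2 a lower difference (12.5%), and 6 were shared. CCN2, a matricellular growth factor, stood at 23.6 and 23.5 CPM in Scr, 202.0 and 213.4 with shNBD1, 37.1 and 100.0 in NC, and 135.8 and 682.3 with the inhibitors. CCN1, its relative, stood at 45.3 and 42.3 CPM in Scr, 142.6 and 143.6 with shNBD1, 39.5 and 59.9 in NC, and 70.8 and 231.4 with the inhibitors. All treated libraries were above their controls, but inhibitors replicate 2 was several times higher than replicate 1. The difference of effects was 0.57 ± 0.86 for CCN2 and 0.12 ± 0.57 for CCN1, with 95% intervals of -1.34 to 2.48 and -1.14 to 1.37, so a large difference either way was not detectable.

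With inhibitors replicate 1 set against NC replicate 2 alone, no spread can be measured in the inhibitor arm. In that fit, without both NC replicate 1 and inhibitors replicate 2, the inhibitor effect was 0.44 in CCN2 and 0.24 in CCN1. MYOF, F3, FJX1 and TEAD4 completed the shared members, and of the 6 only FJX1 stayed shared without those libraries. Relative to the control means, the list's median was 0.60 and 0.63 in the hairpin libraries and 0.29 and 0.73 in the inhibitor libraries. LATS2, the kinase that restrains YAP and is itself a target, was opposed. LATS2 stood at 6.71 and 7.12 CPM in Scr, 2.28 and 2.79 with shNBD1, 5.62 and 5.82 in NC, and 7.94 and 9.74 with the inhibitors. The difference was -2.05 ± 0.25 (adjusted p = 0.0017), and it held the call under all 19 alternatives. GADD45B, a stress-response gene, was opposed at -2.31 ± 0.59 (adjusted p = 0.0425, edgeR's quasi-likelihood test) and lost the call under 6 of 19 alternatives. It stood at 5.32 and 10.9 CPM in NC and 15.6 and 44.2 with the inhibitors, and its hairpin effect was -0.47 ± 0.42. CRIM1 was hairpin-sided at 0.56 ± 0.13.

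**Figure D3:**
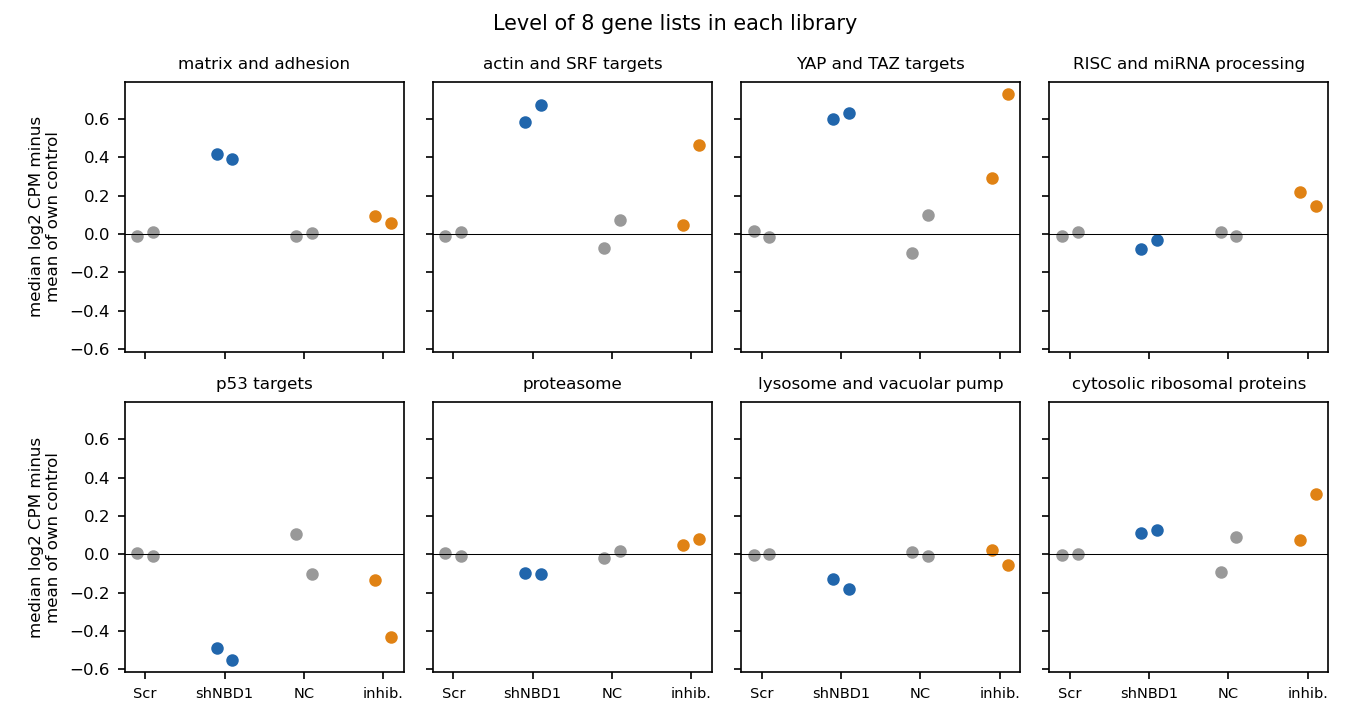
Median level of 8 gene lists in each library (y axis, log2 CPM relative to the mean of that arm's control; x axis, the 4 groups; points are libraries). Matrix genes are raised in both hairpin libraries and near 0 in both inhibitor libraries, whereas for YAP and TAZ, actin and ribosomal protein genes inhibitors replicate 2 lies above replicate 1.

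The inhibitor-sided class held 14 genes (0.105% of those tested), and 3 of them belong to the miRNA machinery, of which DICER1 alone stayed inhibitor-sided without both libraries that stood apart. AGO2, the Argonaute with slicer activity, stood at 39.4 and 42.5 CPM in Scr, 37.8 and 35.5 with shNBD1, 32.4 and 37.2 in NC, and 48.6 and 64.1 with the inhibitors. TNRC6A, the scaffold that links Argonaute to the deadenylases, stood at 42 and 44.9 CPM in Scr, 48.7 and 48 with shNBD1, 53.3 and 61.1 in NC, and 86.9 and 91.3 with the inhibitors. DICER1, which cuts miRNA precursors, stood at 77.9 and 78.4 CPM in Scr, 77.3 and 77.7 with shNBD1, 71.6 and 75.1 in NC, and 105.6 and 93.2 with the inhibitors. In all 3 genes both inhibitor libraries were above the other 6.

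The inhibitor effects were 0.69 ± 0.13 for AGO2 (adjusted p = 0.0803), 0.64 ± 0.08 for TNRC6A (adjusted p = 0.028) and 0.44 ± 0.08 for DICER1 (adjusted p = 0.0803), and the hairpin effects -0.16, 0.16 and -0.01. The differences were -0.85 ± 0.18 (adjusted p = 0.0205), -0.48 ± 0.12 (adjusted p = 0.0392) and -0.45 ± 0.11 (adjusted p = 0.0332). Of 16 tested genes of the machinery, 3 were lower in the difference (18.8%) and 0 higher, with 6 and 1 at an unadjusted p under 0.05, 1 and 0 in DESeq2, and 8 and 1 without both libraries that stood apart. In that setting AGO2 was opposed, with an inhibitor effect of 0.38 and a difference of -0.54, and TNRC6A was unequal in the same direction, with 0.51 and -0.35. DICER1 and TNRC6A kept the call under 11 of 19 alternatives and AGO2 under 15, and each lost it without any 1 library of the hairpin arm. Of the others, AGO3 had an inhibitor effect of 0.27 ± 0.10 and a difference of -0.46 ± 0.14 (adjusted p = 0.0719), and TNRC6B 0.25 ± 0.09 and -0.31 ± 0.13 (adjusted p = 0.166). DROSHA and DGCR8, which make the first cut, had differences of -0.19 ± 0.10 and -0.09 ± 0.14. AGO1 rose with the hairpin by 0.40 ± 0.09 (adjusted p = 0.0118) and had a difference of 0.22 ± 0.12 (adjusted p = 0.324).

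MSI2, an RNA-binding protein of stem cells, was the inhibitor-sided gene of smallest p in the other direction. MSI2 stood at 45.6 and 50.5 CPM in Scr, 47.8 and 50.4 with shNBD1, 58.4 and 51 in NC, and 30.3 and 29.1 with the inhibitors. The inhibitor libraries lay below the other 6, and the hairpin libraries overlapped with Scr. MSI2 fell by 0.88 ± 0.10 with the inhibitors (adjusted p = 0.0142), the hairpin effect was 0.03 ± 0.09 (95% interval -0.17 to 0.24), and the difference was 0.91 ± 0.13 (adjusted p = 0.00373). It was the only gene of the class called in all 8 fits that left out a library. MAPK3, the kinase ERK1, stood at 72 and 74.4 CPM in Scr, 70.2 and 77.4 with shNBD1, 68.3 and 67.9 in NC, and 47.1 and 46.5 with the inhibitors (difference 0.55 ± 0.11, adjusted p = 0.0134).

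Smaller inhibitor-sided effects on that side were seen in TRAPPC6A, a vesicle-tethering subunit (0.95 ± 0.19), NT5DC2 (0.60 ± 0.12), SEC61A2, a copy of the translocon channel whose reads may be shared with its close relative (0.59 ± 0.12), and UBE2E1, a ubiquitin-conjugating enzyme (0.46 ± 0.10). AASDHPPT, which attaches the phosphopantetheine arm to acyl carrier proteins, stood at 70 and 69.9 CPM in Scr, 71 and 62.4 with shNBD1, 69.6 and 71.3 in NC, and 89.4 and 93.3 with the inhibitors (-0.44 ± 0.11, adjusted p = 0.0385).

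The labels do not name the inhibited miRNAs, so targets of 3 abundant families were read as lists. Their mature forms, from RefSeq (GRCh38.p14), are shown because each list rests on 1 seed; capitals mark bases 2 to 8, which pair with the target, and the members of a family share them.
hsa-let-7a-5p: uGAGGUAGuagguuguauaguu
hsa-let-7f-5p: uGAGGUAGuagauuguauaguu
hsa-miR-17-5p: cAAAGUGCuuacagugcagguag
hsa-miR-20a-5p: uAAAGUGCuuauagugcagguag
hsa-miR-15a-5p: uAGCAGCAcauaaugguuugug
hsa-miR-16-5p: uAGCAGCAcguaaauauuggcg
The medians of the hairpin and inhibitor effects were 0.31 and 0.21 over 26 let-7 targets, 0.06 and 0.11 over 26 targets of the miR-17 family, and -0.03 and 0.18 over 20 targets of miR-15 and miR-16, against 0.00 and 0.01 over all genes. The difference was called in 4 let-7 targets (15.4%), in 4 of the miR-17 list (15.4%) and in 0 of the miR-15 and miR-16 list, where 5 had an unadjusted p under 0.05 and DESeq2 called 0. Without both libraries that stood apart the higher and lower calls were 10 and 5 for let-7, 4 and 5 for miR-17, and 3 and 6 for miR-15 and miR-16. The sign of the median difference changed between alternatives for let-7 (-0.02 to 0.25) and miR-17 (-0.10 to 0.05).

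Of the let-7 list, CCND2 and DICER1 are given above, and ARID3B, a chromatin factor, was unequal in the same direction (0.58 ± 0.15). LIN28B, the protein that blocks let-7 maturation, stood at 6.71 and 7.94 CPM in Scr, 15.8 and 15.1 with shNBD1, 12 and 13.7 in NC, and 18.8 and 19.9 with the inhibitors. It rose with the hairpin by 1.08 ± 0.13 (adjusted p = 6.77e-04), its inhibitor effect was 0.58 ± 0.12 (adjusted p = 0.0934), and its difference was 0.50 ± 0.18 (adjusted p = 0.118). The miR-17 list held 5 shared genes, ZBTB4, TGFBR2, FYCO1, TNKS1BP1 and ITGB8, beside its 4 called ones. ZBTB4 and TNKS1BP1 were unequal, and the other 3 still shared, without both libraries that stood apart. TNKS1BP1, which binds tankyrase and the CCR4-NOT complex, stood at 24 and 24.6 CPM in Scr, 39.1 and 39 with shNBD1, 40.5 and 47.6 in NC, and 59.1 and 65 with the inhibitors. Its difference was 0.20 ± 0.14 (95% interval -0.11 to 0.50). FYCO1, an adaptor of autophagosome transport, had effects of 0.45 and 0.50 and a difference of -0.05 ± 0.14. The differing members were ANKFY1, an endosomal protein (-0.96 ± 0.10, hairpin-sided), ARID4B, a repressor subunit (-0.58 ± 0.10, opposed), CRIM1, and KAT2B, an acetyltransferase that was unequal in the same direction (effects -1.35 and -0.45).

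The shared gene of smallest p was ANKRD52, a regulatory subunit of the phosphatase PP6 that removes phosphates from Argonaute (chr12:56237807-56258384). ANKRD52 stood at 67.2 and 70.2 CPM in Scr, 118.3 and 121.9 with shNBD1, 119.8 and 117.3 in NC, and 193.1 and 194.7 with the inhibitors. Each treatment raised it from its own control without overlap, and the hairpin libraries reached the level of NC. It rose by 0.81 ± 0.07 and 0.71 ± 0.06 (adjusted p = 6.30e-05 and 0.00493), with a difference of 0.10 ± 0.09 (95% interval -0.11 to 0.30). By a stricter rule, which takes the larger of the one-arm p-values, ANKRD52 was the only shared gene (0.00752% of those tested). TNRC6C, a paralog of TNRC6A, was also shared, with effects of 0.40 ± 0.09 and 0.31 ± 0.09.

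Of the 508 shared genes, 261 were higher (1.96% of all tested genes) and 247 lower (1.86%). The 95% interval of the difference lay within 0.5 of 0 in 134 and 141 of them, so for the others a difference of that size was not detectable. Most of the 508 were no longer classed as shared without both libraries that stood apart, being hairpin-sided, unequal or in no class. That fit sets 1 inhibitor library against 1 NC library of unlike replicate number, so it cannot decide how stable the class is. THBS1, the matricellular protein thrombospondin 1, stood at 13.2 and 11.9 CPM in Scr, 36.1 and 34.4 with shNBD1, 137.7 and 146.4 in NC, and 264.7 and 438.4 with the inhibitors. It rose by 1.49 ± 0.22 and 1.30 ± 0.18 (adjusted p = 0.00184 and 0.0297), although NC was far above Scr (Scr minus NC -3.50). Without the libraries that stood apart its inhibitor effect was 0.85 and the difference 0.63.

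ITGA8, an integrin of kidney development, passed the test in both arms on the lower side. ITGA8 stood at 46.4 and 45.8 CPM in Scr, 27.3 and 27.8 with shNBD1, 29.2 and 19.9 in NC, and 11.6 and 8.13 with the inhibitors. It fell by 0.74 ± 0.17 and 1.28 ± 0.19 (adjusted p = 0.0134 and 0.0396), with a difference of 0.54 ± 0.26 (95% interval -0.03 to 1.11). RTL8A, a gene with near-identical copies whose reads cannot be told apart, was the fourth gene that passed in both arms with the same sign (-0.22 ± 0.07 and -0.50 ± 0.07). Its difference, 0.29 ± 0.10, had an adjusted p of 0.0955. Other shared genes named by p were ADAM9, a membrane protease (effects 0.40 and 0.40), LRP5, a Wnt coreceptor (0.47 and 0.40), USP2, a deubiquitinase (0.89 and 0.76), and LMBR1L (0.54 and 0.57). On the lower side these were GDF1, whose locus overlaps that of another gene (-0.75 and -0.76), SLC12A4, a potassium-chloride cotransporter (-0.53 and -0.38), MAOA, a monoamine oxidase (-0.92 and -0.76), IFI16, a DNA sensor (-0.56 and -0.51), the transcription factor EBF2 (-1.40 and -1.09) and TSPAN11 (-1.63 and -1.11).

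Targets of p53, whose protein is bound by large T antigen in these cells, were mostly lower in both arms. The medians over 23 tested genes were -0.48 for the hairpin and -0.26 for the inhibitors. The hairpin lowered 14 and raised 0, and the inhibitors passed the test for 0. The difference was called in 2, lower in both (8.7%), and 8 were shared. BAX, the pore-forming apoptosis protein, stood at 200.0 and 192.5 CPM in Scr, 141.0 and 141.4 with shNBD1, 195.0 and 168.4 in NC, and 142.9 and 127.9 with the inhibitors. Its effects were -0.48 ± 0.09 and -0.42 ± 0.09 and the difference -0.05 ± 0.12 (95% interval -0.32 to 0.21). TNFRSF10B, FDXR, TP53I3, XPC, ZMAT3, POLH and SPATA18 were the others of this kind. The hairpin-sided members were SESN1 and TIGAR, of redox and glycolytic control, at -0.94 ± 0.23 and -0.68 ± 0.15. Relative to the NC mean the list stood at 0.10 and -0.10 in NC, and at -0.13 and -0.43 in the inhibitor libraries. Both inhibitor libraries thus stood below both NC libraries, but inhibitors replicate 1 (-0.13) was only just below NC replicate 2 (-0.10). Without NC replicate 1 and inhibitors replicate 2 the inhibitor median was -0.03 and the difference -0.34, and most of the 8 genes were no longer classed as shared. That fit sets 1 inhibitor library against 1 NC library of unlike replicate number.

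The 15 genes with unequal effects in the same direction were led by HSPB8, a small heat-shock protein of chaperone-assisted autophagy. HSPB8 stood at 17.6 and 18 CPM in Scr, 67.9 and 63.2 with shNBD1, 18.7 and 25.3 in NC, and 28.3 and 36.3 with the inhibitors (effects 1.88 ± 0.15 and 0.54 ± 0.15, difference 1.34 ± 0.21, adjusted p = 0.00564). JUN, a subunit of AP-1, stood at 199.3 and 205.4 CPM in Scr, 367.6 and 410.8 with shNBD1, 188.1 and 175.9 in NC, and 199.4 and 234.2 with the inhibitors (difference 0.69 ± 0.13). ITGA5, the fibronectin receptor, and TFPI, which inhibits coagulation, had 0.73 ± 0.13 and 0.71 ± 0.13. GRHL3, a factor of epithelial barriers, was lower at -1.39 ± 0.27. Without both libraries that stood apart, 13 of the 15 were hairpin-sided and 2 unequal.

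Chaperones driven by HSF1 gave 1 higher and 1 lower call among 23 (5 and 6 without both libraries that stood apart), HSPB8 and HSPH1, a nucleotide exchange factor of HSP70 that was opposed at -0.70 ± 0.10 (adjusted p = 0.00378). HSPD1, a mitochondrial chaperonin, and BAG3, a cochaperone of HSP70, were shared, and BAG3 was hairpin-sided without both libraries that stood apart. With all 8 libraries the called share of the HSF1 list was 8.7%, close to the 7.44% of all genes. Glucose carriers also parted. SLC2A3, the neuronal-type carrier, stood at 50.7 and 56.7 CPM in Scr, 34.3 and 32.9 with shNBD1, 36.3 and 41.7 in NC, and 49.5 and 58.9 with the inhibitors, and was opposed at -1.14 ± 0.15 (adjusted p = 0.00248). SLC2A1, the basal carrier, was shared, with effects of 0.51 ± 0.11 and 0.35 ± 0.11, but was hairpin-sided without the libraries that stood apart. PGLS and RPIA of the pentose phosphate pathway were higher at 0.54 ± 0.11 and 0.56 ± 0.13. In the Notch list, PSEN2, a catalytic subunit of the secretase that releases the receptor's intracellular part, was opposed at 0.77 ± 0.12, and the target HEY1 was hairpin-sided at -0.46 ± 0.12.

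**Figure D4:**
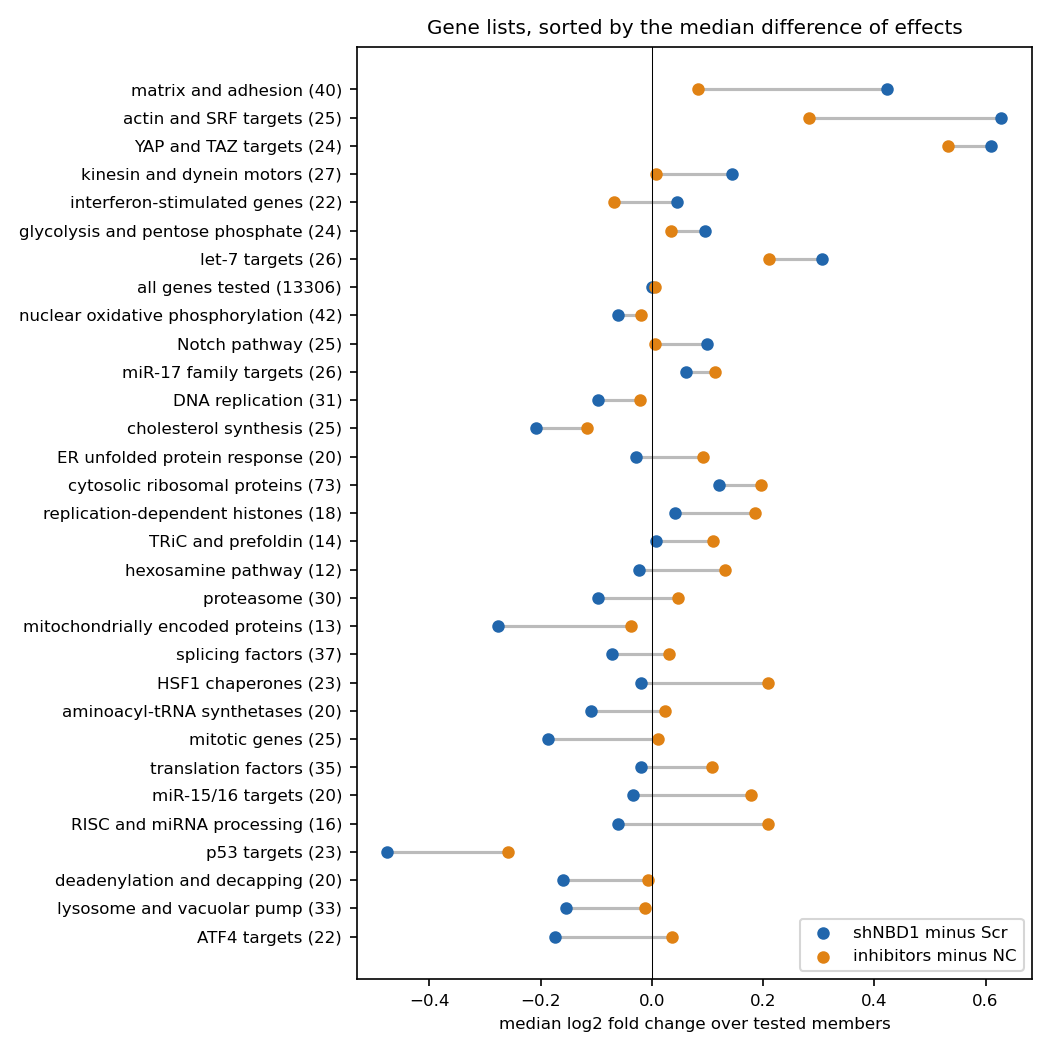
Median log2 fold change over the tested members of each gene list (number tested in brackets) with the hairpin and with the inhibitors, sorted by the median difference of effects. The lists of cell type markers are not drawn. Matrix, actin and YAP and TAZ lists are at the top, with the 2 arms far apart for matrix genes (0.42 and 0.08) and close for YAP and TAZ targets (0.61 and 0.53).

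In the remaining lists the calls with all 8 libraries were few, and for several they rose without both libraries that stood apart. Of 73 cytosolic ribosomal protein genes 3 had a lower difference (4.11%), RPL22, RPS3A and RPS23, and 7 were shared on the higher side, of which 0 were shared without the libraries that stood apart. In that setting, with 1 library each of NC and the inhibitors and of unlike replicate number, the median difference of the list was 0.13 in place of -0.10. Relative to the NC mean, the list stood at -0.09 and 0.09 in NC replicates 1 and 2. Ribosomal protein reads may be divided with processed copies. The inhibitor median of that list was 0.07 in replicate 1 and 0.32 in replicate 2, and the sign of its median difference changed between alternatives (-0.18 to 0.13). Of 42 nuclear genes of oxidative phosphorylation 1 was called, SDHC of succinate dehydrogenase (0.37 ± 0.09). Of 13 mitochondrially encoded genes, MT-ND2 and MT-CO2 were lower (-0.88 ± 0.13 and -0.48 ± 0.11). Of 31 replication genes, CDC6 and RRM2 were lower (-0.45 ± 0.09 and -0.36 ± 0.09), and of 18 histone genes H4C3 was (-0.39 ± 0.09), with reads that may be shared between copies. The ER stress list gave PDIA4 higher (0.37 ± 0.10) and PDIA3 lower (-0.33 ± 0.09), the ATF4 list PCK2 higher (0.61 ± 0.11) and SLC7A11 lower. The tRNA synthetase list gave QARS1 higher (0.35 ± 0.09), and IARS1 and RARS1 lower (-0.39 ± 0.09 for RARS1). Interferon-stimulated genes gave 0 calls among 22, with 6 higher and 0 lower at an unadjusted p under 0.05 and 0 in DESeq2. Without both libraries that stood apart the higher and lower calls were 7 and 2 for interferon-stimulated genes (21 tested), 5 and 5 for tRNA synthetases, 3 and 10 for replication genes and 6 and 5 for oxidative phosphorylation. They were 0 and 6 for mitochondrially encoded genes, 1 and 5 for histones, 1 and 3 for ER stress, 5 and 4 for ATF4 targets, 4 and 3 for the Notch list and 9 and 4 for glycolysis and pentose phosphate. The feature named NBD1reporter had a hairpin effect of -0.35 ± 0.07 (adjusted p = 0.00527), an inhibitor effect of -0.03 ± 0.07 and a difference of -0.32 ± 0.09 (adjusted p = 0.0614). The difference of NBD1reporter passed under 7 of 19 alternatives, and was -0.39 without both libraries that stood apart.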

How the data were processed

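The 8 libraries are ribosome profiles of 293T cells, 2 per group, grouped by the labels. The deposited files hold raw counts per feature. Cutadapt, Bowtie and GRCh38 are named in the submitters' processing notes, and the sources used here do not give the counter, the versions or how ribosomal RNA was removed. Features were summed per symbol (18037 to 17179, of which 279 symbols had several features), and a feature not listed was taken as 0. Genes passing edgeR's filterByExpr (minimum count 10, minimum total 15) were fitted with TMM scaling and 1 mean per group in edgeR 4.0.16 (R 4.3.3), using the quasi-likelihood test with 4 residual degrees of freedom and Benjamini-Hochberg adjustment over 13306 genes at 0.05. The common biological coefficient of variation was 0.0753. CPM are on TMM-scaled library sizes unless stated. Of the genes tested, 12760 had a RefSeq symbol, which gave coordinates, and 546 did not.

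Named genes reached a mean of 50 counts in their highest group and were the smallest p in each class and direction whose treated libraries lay beyond their controls in the arms that the class concerns; called or shared members of the functional lists were added. Any other gene was picked with its values in view. The members, lists and rules were chosen with earlier results of these data known. No set test was run. DESeq2 1.42.0, limma 3.58.1, other scalings and filters, a replicate block and the omission of each library were alternatives, and the joint omission of NC replicate 1 and inhibitors replicate 2 was chosen after seeing the data. Calculations were tested on simulated data. Footprint reads without molecular identifiers are not independent molecules. A few genes that the rule names are not reported here.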

Additional observations from a re-analysis of the deposited data

How the results depend on the processing

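The direction of the difference did not change for any gene called both in the main setting and in an alternative. DESeq2 called 735 genes (695 of the 990), limma 1012 (978), relative log expression scaling 980 (976) and upper-quartile scaling 968 (949). Plain library totals gave 677 calls (657 of the 990), with 338 opposed and 7 inhibitor-sided. Without a filter on low counts 1131 genes were called, 23 of them inhibitor-sided and 27 unequal. A class boundary of 0.33 gave 28 inhibitor-sided and 2 unequal genes, and one of 0.15 gave 287 hairpin-sided, 6 inhibitor-sided and 74 unequal. Taking the larger one-arm p left 1 shared gene.

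Leaving out 1 library at a time gave 82 to 585 genes with a higher and 105 to 550 with a lower difference, 75 to 654 opposed, 109 to 524 hairpin-sided, 1 to 123 inhibitor-sided, 1 to 32 unequal and 82 to 1282 shared. Without both NC replicate 1 and inhibitors replicate 2, 1913 were higher and 1825 lower, with 2233 opposed, 1258 hairpin-sided, 154 inhibitor-sided and 93 unequal. That arm then had 1 library a group, assumed to vary like the hairpin arm.

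The labels do not say that a replicate number marks a shared culture or day, and the numbers were not taken as pairs. Correlations of replicate 2 minus replicate 1 were 0.0152 between Scr and shNBD1, 0.42 between NC and inhibitors, 0.161 between shNBD1 and NC, 0.133 between shNBD1 and inhibitors, and 0.0107 and 0.00226 between Scr and inhibitors or NC. The inhibitor arm thus has a correlation that the hairpin arm lacks, and its counts depend on the block. With the replicate block as 1 term, 897 genes were higher and 971 lower, with 966 opposed, 758 hairpin-sided, 76 inhibitor-sided, 68 unequal and 771 shared. With a replicate block within each arm the counts were 1638, 1755, 1618, 1225, 268, 282 and 914 in the same order.

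Among named shared genes, some differences changed sign between alternatives. Others kept their sign, such as ITGA8 (0.04 to 0.87), TSPAN11 (-0.90 to -0.16) and EBF2 (-0.58 to -0.09). The difference of ITGA8, not called in the main setting, passed the test in some alternatives. The genes that follow changed sign. ADAM9 was at 0.0088 with upper-quartile scaling, 0.0087 without the filter, 0.0017 with a mean of at least 50 counts, 0.0243 without both libraries and -0.0883 to 0.0865 without 1 library. GDF1 was at -0.0008 with the block within each arm and -0.0900 to 0.1108 without 1 library. FYCO1 was at 0.0206 and LMBR1L at 0.0781 without both libraries, and at -0.1321 to 0.0548 and -0.1198 to 0.0843 without 1. The values without 1 library were -0.1668 to 0.1377 for IFI16, -0.1546 to 0.0504 for BAX, -0.4014 to 0.1288 for MAOA, -0.1263 to 0.6016 for THBS1 and -0.0068 to 0.2955 for USP2. The causes were not tested.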
